A study of Mus musculus with 45 samples.

Results

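Non-germinal center (non-GC) B cells from S1PR4-/- mice were compared with the same cells from WT littermates. The comparison takes 9 of the 45 RNA-sequencing samples of the series, the 5 labelled as WT and the 4 labelled as S1PR4-/- non-GC B cells, and no measured value entered the choice. The S1PR4-/- mice were of strain B6.129P2-S1pr4tm1Dgen/J, with a targeted S1pr4 allele in every cell of the animal, backcrossed at least 10 times to C57/BL6, and the WT mice were their S1pr4+/+ littermates. Mice of both genotypes were male or female and 8 to 12 weeks old, and all had received 20 µl of an emulsion of IFA with 50 µg OVA and 5 µg LPS in the hind footpad. B220+ GL7- Fas- cells were sorted from the popliteal draining lymph node on day 9 after immunization. No sample came from unimmunized mice, so the values describe the genotypes after immunization. The question put to these samples is how B cells outside the germinal center respond to the loss of S1PR4, the population with the highest S1pr4 level among the sorted B cells.

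S1PR4 is a G protein-coupled receptor for the lipid sphingosine-1-phosphate (S1P), found mainly on cells of the blood and the immune system. S1P is abundant in blood and lymph and scarce inside lymph nodes, and lymphocytes read this gradient through the related receptor S1PR1 when they leave the node. Outside the germinal center, most B cells of a lymph node are resting follicular B cells that recirculate, with fewer memory and activated cells.

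Total expected counts were 33069406, 30750192, 39258003, 31338330 and 27924916 in WT replicates 1 to 5 and 30487357, 30309639, 35682756 and 32129995 in S1PR4-/- replicates 1 to 4. Values are given as CPM, each gene's counts over the library size scaled by edgeR's TMM method. SE stands for the standard error of a log2 fold change, and FDR for its p adjusted over all tested genes. With 5 and 4 samples, the 95% confidence interval of the median tested gene reached 0.33 on the log2 scale to either side (1.26-fold), and at a mean of 10 CPM or more (8390 genes) it reached 0.24 (1.18-fold).

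The markers matched the label of the cells. Cd79a, which encodes a chain of the B cell receptor, was between 2460 and 3080 CPM in the 9 samples. Fas, whose protein the sort selected against, was at a mean of 6.56 CPM in WT non-GC B cells and 117 CPM in WT GC B cells. S1pr2, the S1P receptor of GC B cells, was at 2.56 against 467 CPM. The values of this comparison of populations were scaled over the GC B and non-GC B samples of both genotypes. T cell markers were listed with 14 genes, of which Cd3e, Cd3d, Cd3g and Bcl11b were too low to be tested in non-GC B cells. Their summed level was between 279 and 366 CPM in WT and between 296 and 352 CPM in S1PR4-/- samples, most of it from Cd2, which B cells also express (mean 209 CPM). Xist, expressed from the inactive X chromosome of females, was at 22.9 CPM or more in WT replicates 1, 3 and 5 and S1PR4-/- replicates 1 and 2, and at 0.249 CPM or less in the other 4 samples, so each genotype held both sexes.

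S1PR4-/- replicate 1 stood apart from the other 8 samples before genotypes were compared. It had a count of 0 for 641 of the 13038 tested genes (4.92%), against 48 to 213 in the others. On the first principal component it scored 88.8, with the others between -19.2 and 5.34. Its total count was within the range of the other samples. Results that rest on it are given with and without it.

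**Figure D1:**
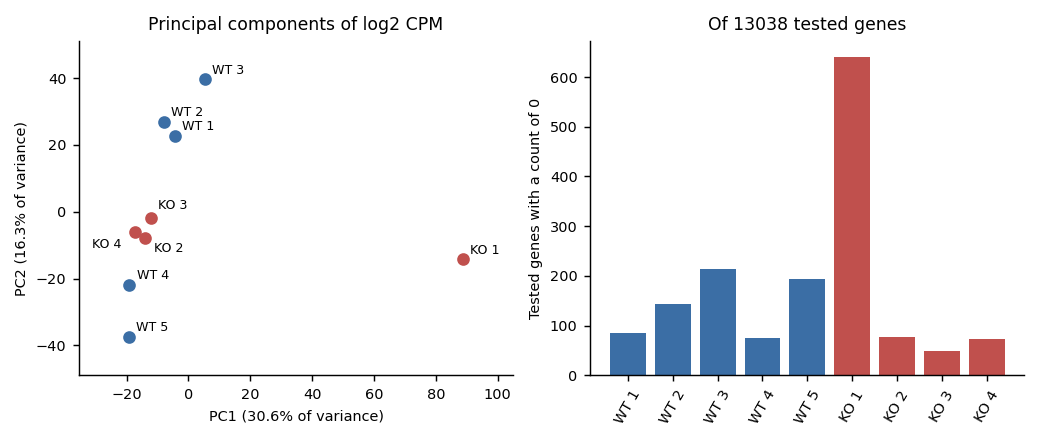
Left, scores of the 9 non-GC B samples on the first 2 principal components of log2 CPM, with the percent of variance on each axis; right, bars of the number of tested genes with a count of 0 in each sample. WT samples are blue and S1PR4-/- samples red; S1PR4-/- replicate 1 lies at 88.8 on the first component and has 641 genes at 0.

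WT replicate 3 differed in another way, with more RNA of antibody-secreting cells. Jchain, which links antibody units in plasma cells, was at 254 CPM in it and between 13.9 and 77.9 CPM in the other WT samples. The summed level of 11 plasma cell genes was 949 CPM, against 552 to 623 CPM. A further split followed the order of the columns in the deposited table. It did not separate the genotypes but was uneven between them. The first set held 3 WT and 1 S1PR4-/- samples, and the second 2 WT and 3 S1PR4-/- samples. Siglech, a marker of plasmacytoid dendritic cells, was at most 0.993 CPM in the 4 samples listed first (WT replicates 1 to 3 and S1PR4-/- replicate 1), and at 37.2 and 39.7 CPM in WT replicates 4 and 5 and 15.2, 17 and 26.5 CPM in S1PR4-/- replicates 2 to 4. NK cell markers, 6 genes, summed to between 5.19 and 9.85 CPM in the first 4 samples and to between 12.8 and 59.3 CPM in the other 5. The labels name no batch. With this split as a covariate in the edgeR fit, chosen after the data were seen, the same 7 genes were changed as without it, and 883 of 13038 (6.77%) had an unadjusted p under 0.05.

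Loss of S1pr4 was the first comparison. S1pr4 (ENSMUSG00000044199.6, chromosome 10 from 81497747 to 81500132 on the minus strand, build GRCm38) was at 90.6, 89.7, 80.9, 92.1 and 96.1 CPM in WT replicates 1 to 5. In S1PR4-/- replicates 1 to 4 it was at 0.134, 0.164, 0.167 and 0.0311 CPM, which is 16 counts in all. The WT level was 721 times that of S1PR4-/- cells, with a 95% counting interval from 444 to 1260, and counting intervals here and below cover counting error only. The fitted log2 fold change was -9.45 (SE 0.21, FDR 3.96e-10, edgeR). All 4 knockout samples were close to 0, and the WT samples lay within a narrow band. Among the 8 groups, scaled together, the median S1pr4 level of WT cells was 150 CPM in non-TFH CD4+ T cells, 91.7 in non-GC B cells, 65.6 in TFH cells and 23.9 in GC B cells. The ranges of the 4 groups, 119 to 164, 81.4 to 96.9, 52.2 to 72.1 and 17.1 to 37.1 CPM, did not overlap.

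Apart from S1pr4, few genes passed the test, and most of these lie on its chromosome. Of 13038 tested genes, 7 (0.0537%) were changed, that is past 1.5-fold with an FDR under 0.05, 5 lower and 2 higher in S1PR4-/- cells. Without adjustment 593 genes had a p under 0.05 (4.55%), 307 higher (2.35%) and 286 lower (2.19%), where 652 would pass by chance. The changed genes besides S1pr4 were Gna15, Tdg, Gm3055 and Gm32687, all lower, and Gm9855 and Tdg-ps, both higher. Without S1PR4-/- replicate 1, 8 of 13357 genes (0.0599%) were changed, these 7 and Zfp781, and without WT replicate 3 there were 6, Gna15 being the one lost. In the fit without S1PR4-/- replicate 1, 571 (4.27%) had an unadjusted p under 0.05. DESeq2 in place of edgeR gave 16 changed genes, among them the same 7.

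**Figure D2:**
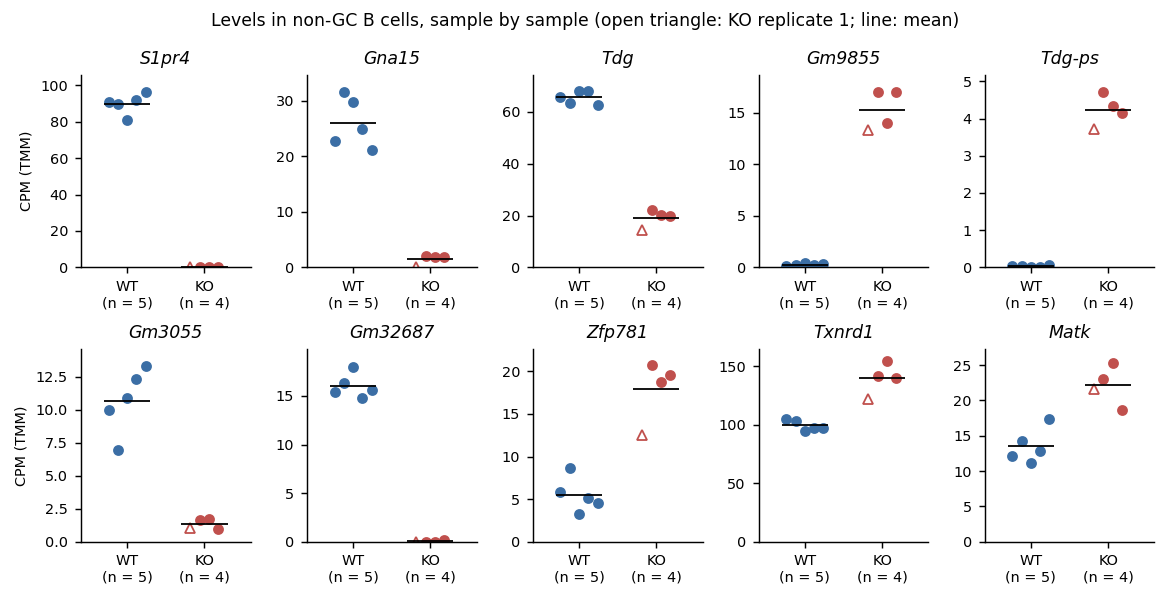
Level of 10 genes in each of the 9 samples, in CPM on linear axes that start at 0, with the mean of each genotype as a line and S1PR4-/- replicate 1 as an open triangle. S1pr4 is at most 0.167 CPM in S1PR4-/- samples, and the WT and S1PR4-/- points do not overlap in any of the 10 genes.

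Gna15 encodes a G protein alpha subunit of the Gq class, found in blood cells, that couples many receptors to phospholipase C. The gene lies 2.17 kb from S1pr4 (ENSMUSG00000034792.8, chromosome 10 from 81502306 to 81524225 on the minus strand). It was at 22.8, 31.5, 29.8, 25 and 21.2 CPM in WT replicates 1 to 5 and at 0.067, 2.1, 1.92 and 1.93 CPM in S1PR4-/- replicates 1 to 4. Every S1PR4-/- sample was below every WT sample, and S1PR4-/- replicate 1 was far below the other 3. The log2 fold change was -4.10 (SE 0.53, FDR 0.0140, edgeR), and without S1PR4-/- replicate 1 it was -3.71 (SE 0.19, FDR 3.51e-06). The adjusted p was over 0.05 when WT replicate 3 or S1PR4-/- replicate 2, 3 or 4 was left out instead, under limma voom and with the replicate number as a block (replicate block). Over 19 alternatives it ran from 7.13e-08 to 0.209. Loss of S1pr4 itself and DNA beside the targeted allele, which is inherited with it, cannot be told apart in this design, for Gna15 and for every other gene near S1pr4.

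Tdg encodes thymine DNA glycosylase, a base excision repair enzyme that removes mispaired thymine and products of cytosine demethylation. It lies 1130 kb from S1pr4 (ENSMUSG00000034674.18, chromosome 10 from 82629828 to 82650799 on the plus strand). Its level was 65.7, 63.3, 68.2, 68.2 and 62.8 CPM in WT replicates 1 to 5 and 14.3, 22, 20.1 and 19.8 CPM in S1PR4-/- replicates 1 to 4. The groups were far apart and the spread within each was small. The log2 fold change was -1.78 (SE 0.12, FDR 2.77e-05, edgeR), and -1.67 without S1PR4-/- replicate 1 (FDR 3.51e-06). Of 17 base excision and DNA demethylation genes, Tdg among them, 15 were tested, 7 above and 8 below 0, with a median of -0.00. The median turned to 0.01 with the split of samples as a covariate. It was -0.05 without S1PR4-/- replicate 1, -0.04 under limma voom and -0.04 without WT replicate 3. With all 9 samples and no covariate, no member besides Tdg reached an FDR under 0.05 or an unadjusted p under 0.05 in edgeR. In DESeq2 and limma voom, no member besides Tdg had an FDR under 0.05. Polb had an unadjusted p under 0.05 without S1PR4-/- replicate 1, and Parp1 with the split as a covariate. Parp1, a sensor of DNA breaks and the most abundant of the list, was between 549 and 715 CPM in WT and between 646 and 706 CPM in S1PR4-/- samples.

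The 2 genes that were higher are annotated copies of Tdg. Gm9855, elsewhere on chromosome 10 at 39400 kb from S1pr4, was between 0.179 and 0.392 CPM in WT samples and at 13.3, 17, 14 and 17 CPM in S1PR4-/- replicates 1 to 4, a log2 fold change of 5.92 (SE 0.26, FDR 4.85e-07, edgeR). Tdg-ps, on chromosome 15, had 4 counts over the 5 WT samples and was at 3.72, 4.7, 4.34 and 4.14 CPM in S1PR4-/- replicates 1 to 4. The S1PR4-/- level of Tdg-ps was 171 times that of WT, with a counting interval from 66.9 to 629 (FDR 0.000321, edgeR). Over its whole length of 1194 bases, Gm9855 differs from the Tdg transcript at 9 bases (99.2% identical), and Tdg-ps at 39 of 2968 bases (98.7%). To show how alike the 3 are, the 90 bases of a single Tdg exon with the most differences are given below for each, 5′ to 3′, with capitals at the positions where they are not all the same. The Tdg stretch is chr10:82648578-82648667 on the plus strand of GRCm38, in exon 10 of 10, and holds 4 differences from Gm9855 and 3 from Tdg-ps.
Tdg: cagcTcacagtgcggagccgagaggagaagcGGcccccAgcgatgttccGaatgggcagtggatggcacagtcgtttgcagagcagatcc
Gm9855: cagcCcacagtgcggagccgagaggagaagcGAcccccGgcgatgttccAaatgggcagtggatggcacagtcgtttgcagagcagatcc
Tdg-ps: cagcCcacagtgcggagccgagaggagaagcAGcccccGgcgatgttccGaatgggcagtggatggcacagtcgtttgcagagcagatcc

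Of the 50-base words of the Tdg transcripts, 35.5% are also found in another gene, and of those of Gm9855 and Tdg-ps, 76.5% and 56% are found in Tdg, so counts of the 3 were also added up. The sum was 65.9, 63.5, 68.5, 68.4 and 63.1 CPM in WT replicates 1 to 5 and 31.4, 43.7, 38.5 and 40.9 CPM in S1PR4-/- replicates 1 to 4. The mean of the sum in S1PR4-/- cells was 0.586 times that of WT, against 0.29 times for Tdg alone. The share of the sum assigned to Gm9855 and Tdg-ps was 0.416% in WT and 50.7% in S1PR4-/- cells. So the sum was lower in all 4 S1PR4-/- samples, by less than Tdg alone. Whether the counts of Gm9855 and Tdg-ps come from these genes or from Tdg cannot be told apart in gene-level counts.

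Gm3055 and Gm32687, both annotated as protein-coding, also have near-identical copies. Gm3055, 243 kb from S1pr4, was at 9.95, 6.92, 10.9, 12.3 and 13.3 CPM in WT replicates 1 to 5 and at 1.07, 1.61, 1.75 and 0.964 CPM in S1PR4-/- replicates 1 to 4, a log2 fold change of -2.98 (SE 0.27, FDR 0.000501, edgeR). Zfp781, 402 kb from S1pr4, went the other way, at 5.78, 8.68, 3.26, 5.16 and 4.51 against 12.5, 20.7, 18.7 and 19.6 CPM. Its log2 fold change was 1.71 (SE 0.26, FDR 0.0562), past the threshold without S1PR4-/- replicate 1 (1.85, FDR 0.0264), and between 7.06e-07 and 0.605 over 19 alternatives. The transcripts of the 2 genes differ at 4 of 4067 bases and at 0 of the 729 coding bases. Their sum was between 14.1 and 17.8 CPM in WT samples and at 13.5, 22.3, 20.4 and 20.6 CPM in S1PR4-/- replicates 1 to 4, so the genotypes overlapped through S1PR4-/- replicate 1.

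Gm32687, 364 kb from S1pr4, was at 15.4, 16.3, 18, 14.8 and 15.6 CPM in WT replicates 1 to 5. It had 4 counts over the 4 S1PR4-/- samples, all in replicate 4. The WT level was 514 times that of S1PR4-/- cells, with a counting interval from 201 to 1890 (FDR 1.06e-05, edgeR). Zfp433, 205 kb from S1pr4, was at 15.6, 20.3, 18, 18.8 and 26.3 CPM in WT and at 32.7, 27, 24.8 and 28 CPM in S1PR4-/- samples. The transcripts of Gm32687 and Zfp433 differ at 3 of 2379 bases, and a stretch of 90 bases of Gm32687, chr10:81879005-81879094 on the plus strand, is shown with its copy because 1 base, in capitals, is all that separates them there.
Gm32687: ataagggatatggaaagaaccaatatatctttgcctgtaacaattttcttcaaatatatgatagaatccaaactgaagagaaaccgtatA
Zfp433: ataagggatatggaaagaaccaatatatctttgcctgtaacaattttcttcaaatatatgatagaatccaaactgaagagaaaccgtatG

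The sum of Gm32687 and Zfp433 was 31, 36.6, 36, 33.6 and 41.9 CPM in WT replicates 1 to 5 and 32.7, 27, 24.8 and 28.1 CPM in S1PR4-/- replicates 1 to 4, again with an overlap through S1PR4-/- replicate 1. When the counts of each set of copies were added before the edgeR fit, an alternative chosen after the data were seen, 3 genes were changed, S1pr4, Gna15 and the sum of the Tdg copies, all lower. S1pr4 and Gna15 share little sequence with other genes: 1.24% and 0% of the 50-base words in their transcripts are found in another gene.

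**Figure D3:**
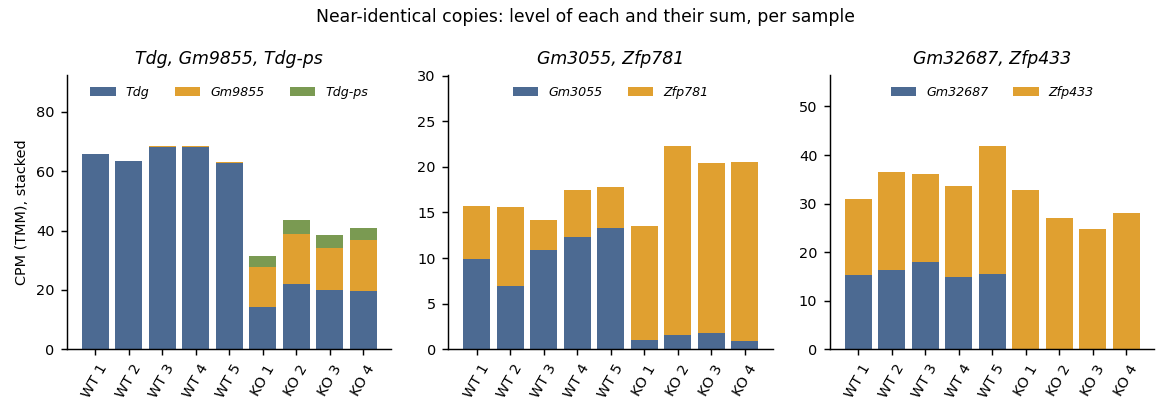
Stacked CPM of near-identical copies in each of the 9 samples, with the bar height as their sum. The sum of Tdg, Gm9855 and Tdg-ps is at most 43.7 CPM in S1PR4-/- and at least 63.1 CPM in WT samples, and the other 2 sums overlap between genotypes.

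Position on the chromosome was compared for all tested genes. Within 10 Mb of S1pr4, S1pr4 itself left out, an FDR under 0.05 was found for 4 of 218 tested genes and an unadjusted p under 0.05 for 17. Elsewhere the numbers were 2 of 12819, the copies Gm9855 and Tdg-ps, and 575. Within 0.5 Mb, 7 of 44 tested genes (15.9%) had an unadjusted p under 0.05, and on other chromosomes 556 of 12418 (4.48%). Of these 7, 4 were the near-identical copies Gm3055, Zfp781, Gm32687 and Zfp433, and the others Gna15, Matk and Aes, the last named after its value was seen. Farther out the share was 6.67% from 0.5 to 1 Mb, 7.84% from 1 to 2 Mb, 4.35% from 2 to 5 Mb and 4.26% from 5 to 10 Mb. Without S1PR4-/- replicate 1, 6 of 225 genes within 10 Mb had an FDR under 0.05, the additional ones being Zfp781 and Txnrd1.

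Txnrd1 encodes the cytosolic thioredoxin reductase, which keeps thioredoxin reduced, and lies 1330 kb from S1pr4. It was at 105, 103, 95, 97.5 and 97.3 CPM in WT replicates 1 to 5 and at 122, 142, 154 and 140 CPM in S1PR4-/- replicates 1 to 4, with no overlap. The log2 fold change was 0.48 (SE 0.08, FDR 0.0673, edgeR), and 0.54 without S1PR4-/- replicate 1 (FDR 0.0135, below 1.5-fold), with adjusted p between 6.16e-06 and 1 over 19 alternatives. Matk, 234 kb from S1pr4, encodes a kinase that restrains Src family kinases. It was between 11.2 and 17.3 CPM in WT and between 18.6 and 25.3 CPM in S1PR4-/- samples, a log2 fold change of 0.71 (SE 0.15, FDR 0.526). Over 19 alternatives the log2 fold change of Matk ran from 0.637 to 0.811. Its adjusted p was under 0.05 in DESeq2 alone (0.015), where it was past the threshold. Neither gene shares a word of 50 bases with another gene.

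**Figure D4:**
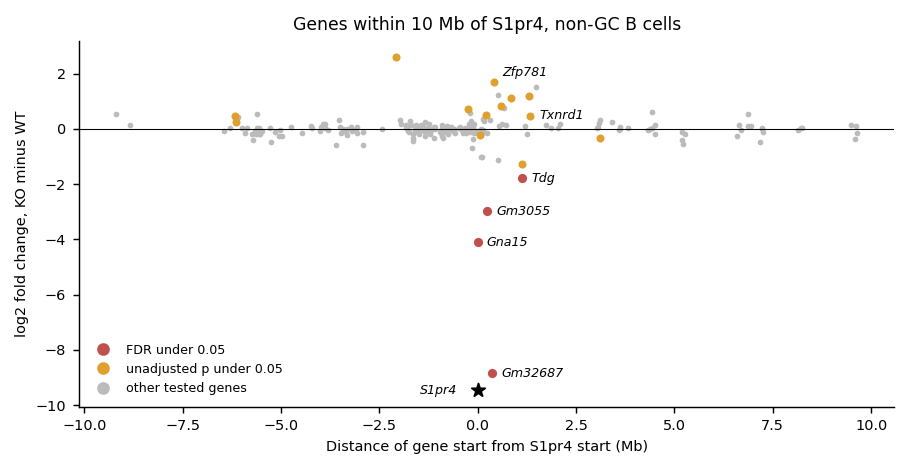
Log2 fold change between S1PR4-/- and WT non-GC B cells of each tested gene within 10 Mb of S1pr4, against the distance of its start from that of S1pr4 in Mb. The 4 red genes have an FDR under 0.05 and lie within 1.13 Mb on one side; the star is S1pr4 at -9.45.

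Other genes near the threshold stayed short of it in the edgeR fit of the 9 samples. Rbm14, which encodes a nuclear RNA-binding protein, was at 118, 121, 119, 112 and 128 CPM in WT replicates 1 to 5 and at 87, 82.8, 99.2 and 87.7 CPM in S1PR4-/- replicates 1 to 4, with no overlap and a log2 fold change of -0.43 (SE 0.07, FDR 0.141, edgeR). Over 19 alternatives the adjusted p of Rbm14 ran from 7.14e-05 to 1 and was under 0.05 in 3, DESeq2, the edgeR fit of all 8 groups and limma voom with sample quality weights. Bhlhe40, the gene of a transcription factor of activated lymphocytes, was between 52.7 and 75.5 CPM in WT and between 35.5 and 53.1 CPM in S1PR4-/- samples (FDR 0.613). The variable segments Igkv16-104 and Ighv5-16, parts of antibody genes whose levels depend on the clones present, had log2 fold changes of 0.76 and 1.14 (FDR 0.526 and 0.544). Gm20402 and 1190007I07Rik, the latter 1120 kb from S1pr4, had log2 fold changes of -1.08 and -1.27 (FDR 0.526 and 0.645). Bhlhe40, Igkv16-104, Ighv5-16, Gm20402 and 1190007I07Rik were past the threshold in DESeq2, and 1190007I07Rik also in the edgeR fit of all 8 groups. Over all tested genes, the groups did not overlap for 228 (1.75%).

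Genes of B cell types and pathways were then followed in 29 lists. The lists hold 372 genes, of which 333 were tested. In edgeR, 2 of the 333 had an FDR under 0.05, Gna15 and Tdg, and 18 an unadjusted p under 0.05. DESeq2 added Bcl2l11 and Iglc3, and limma voom called Tdg alone. Counts of members at an unadjusted p under 0.05 stand beside a share of all tested genes that differed by fit: 4.55% in edgeR, 4.27% without S1PR4-/- replicate 1, 5.41% without WT replicate 3, 6.77% with the split as a covariate, 4.43% with total counts as the scale, 4.92% in limma voom and 5.4% in DESeq2. For genes at their highest WT level in WT replicate 3, the fit without that sample moves the log2 fold change up by construction. The median log2 fold change of all tested genes was -0.00714, with 48.2% of them above 0. In bulk samples, fewer cells of a type and less RNA per cell cannot be told apart, for every list that follows.

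Follicular B cell genes, the program of the main resting B cell population, had values on both sides of 0. All 17 were tested, 9 above and 8 below 0, with a median log2 fold change of 0.02 that turned to -0.01 with the split of samples by column order as a covariate. None had an FDR under 0.05 in edgeR, DESeq2 or limma voom. Fcer2a, which encodes the low-affinity IgE receptor CD23, was between 1190 and 1470 CPM in WT and at 932, 1550, 1250 and 1650 CPM in S1PR4-/- replicates 1 to 4. Fcer2a and Cxcr5, named here after their values were seen, are defining genes of these cells. Cxcr5, the receptor that draws B cells into follicles, was between 458 and 539 CPM in WT and between 444 and 573 CPM in S1PR4-/- samples. Ighd, the heavy chain of IgD, was the most abundant gene of the list, between 3800 and 4500 CPM in WT and between 3940 and 4880 CPM in S1PR4-/- samples. Bank1, an adaptor of B cell receptor signaling, was between 1270 and 1420 CPM in all 9 samples.

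Among the follicular genes, Satb1 is described by sample, beside the 4.55% of all tested genes with an unadjusted p under 0.05. Satb1, a chromatin organizer, was at 316, 312, 336, 314 and 390 CPM in WT and at 286, 292, 292 and 285 CPM in S1PR4-/- samples, with no overlap, a log2 fold change of -0.21 (SE 0.08, unadjusted p = 0.0175, FDR 0.981).

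Marginal zone B cell genes mark B cells that sit by blood sinuses of the spleen and use S1P receptors to stay there; few such cells occur in lymph nodes. Of 16 listed genes, 15 were tested (Ackr3 was too low), 5 above and 10 below 0, with a median of -0.07 and none at an FDR under 0.05. With the split of samples by column order as a covariate the median was 0.00, with 8 above and 7 below 0. Tnfrsf13b, the gene of the BAFF and APRIL receptor TACI, was the 1 member with an unadjusted p under 0.05. It was at 572, 526, 500, 539 and 479 CPM in WT and at 565, 581, 657 and 585 CPM in S1PR4-/- samples, a log2 fold change of 0.19 (SE 0.07, unadjusted p = 0.0200, FDR 0.981). Ackr3 passed the filter on low counts without S1PR4-/- replicate 1 (unadjusted p = 0.00162), a value that rests on 6, 3, 33, 11 and 15 counts in WT replicates 1 to 5 and 0 in all 4 S1PR4-/- samples. Cr2, which encodes complement receptor CD21, was between 694 and 885 CPM in WT and at 554, 896, 544 and 954 CPM in S1PR4-/- replicates 1 to 4. The S1PR4-/- samples thus lay on both sides of the WT range. Dtx1, a regulator of Notch signaling, was between 124 and 230 CPM in WT and between 133 and 174 CPM in S1PR4-/- samples. S1pr3, the S1P receptor of marginal zone B cells, was between 9.37 and 23.8 CPM in WT and between 7.74 and 18.9 CPM in S1PR4-/- samples, a log2 fold change of -0.43 (SE 0.29, FDR 0.981).

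With all 9 samples and no covariate, memory B cell genes gave no member at an unadjusted p under 0.05 in edgeR, DESeq2 or limma voom, and none at an FDR under 0.05 in edgeR, limma voom or DESeq2. All 10 were tested, 4 above and 6 below 0, with a median of -0.04 that turned to 0.04 without WT replicate 3 and to 0.02 with the split of samples as a covariate. Cd38, an enzyme of NAD metabolism on resting and memory B cells, was between 415 and 520 CPM in WT and between 431 and 561 CPM in S1PR4-/- samples. Ccr6, a chemokine receptor of memory B cells and their precursors, was between 93.4 and 136 CPM in WT and between 96 and 137 CPM in S1PR4-/- samples. Hhex, a transcription factor of memory B cell formation, was between 201 and 240 CPM in WT and between 215 and 258 CPM in S1PR4-/- samples. Skil, a repressor of TGF-beta signaling, had the lowest log2 fold change of the list, -0.23 (SE 0.13, FDR 0.981), and was the 1 member at an unadjusted p under 0.05 in edgeR without WT replicate 3. Some classical memory markers were scarce: Cd80 was at most 1.83 CPM and Nt5e, the gene of CD73, at most 3.17 CPM in every sample, both named after their values were seen.

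**Figure D5:**
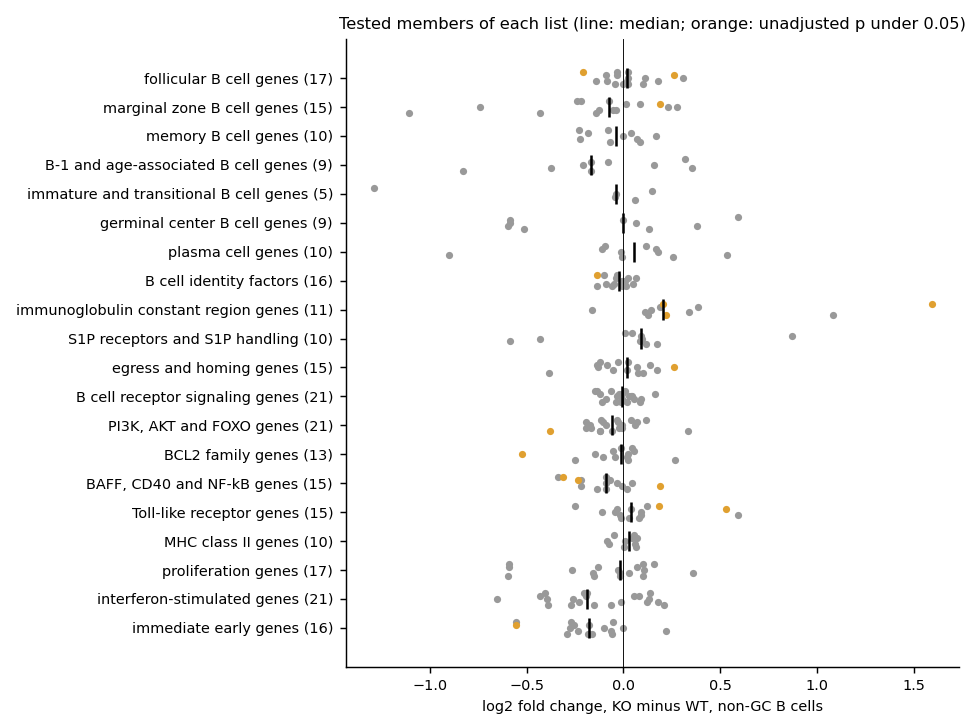
Log2 fold change between S1PR4-/- and WT non-GC B cells of the tested members of 20 gene lists, 1 point a gene and the number of tested members in brackets, with the median as a black line and orange for an unadjusted p under 0.05. The medians of the follicular, marginal zone and memory lists lie at 0.02, -0.07 and -0.04.

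Genes of other B cell states were followed next. B-1 and age-associated B cell genes (9 tested, 3 above and 6 below 0) had a median of -0.17. Their most abundant gene, Zbtb20, a transcription factor of long-lived B cells, was between 49.1 and 85.3 CPM in WT and between 48.5 and 73.3 CPM in S1PR4-/- samples. Immature and transitional genes (5 of 9 tested, 2 above and 3 below 0) had a median of -0.04, and the recombinase genes Rag1 and Rag2 were too low to be tested. Cd24a, a surface protein high on young B cells, was between 133 and 190 CPM in WT, at 92.3 CPM in S1PR4-/- replicate 1 and between 169 and 197 CPM in the other S1PR4-/- samples. Germinal center genes (9 of 11 tested, 4 above and 5 below 0) had a median of -0.00 that turned to 0.13 without S1PR4-/- replicate 1, 0.12 without WT replicate 3 and 0.01 with total counts as the scale. It was -0.26 under limma voom and -0.25 with the split of samples as a covariate. Bcl6, the master repressor of the germinal center, was at 167 CPM in WT replicate 3, between 112 and 123 CPM in the other WT samples and between 130 and 153 CPM in S1PR4-/- samples, with an unadjusted p under 0.05 in edgeR without WT replicate 3. B cell identity factors (16 tested, 5 above and 11 below 0) had a median of -0.02. Spib, an Ets family factor, was the 1 member at an unadjusted p under 0.05 (log2 fold change -0.14, unadjusted p = 0.0439, FDR 0.981, edgeR). Spib was not under it without S1PR4-/- replicate 1, with total counts as the scale or with the split of samples as a covariate. Of the immature and transitional genes, Myb had an unadjusted p under 0.05 with the split as a covariate. In these 4 lists no member had an FDR under 0.05 in edgeR, DESeq2 or limma voom.

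Antibody genes were the list with the most members above 0. Of 12 immunoglobulin constant region genes, 11 were tested, 10 above and 1 below 0, with a median of 0.21 and none at an FDR under 0.05 in edgeR or limma voom, and 1, Iglc3, in DESeq2. The summed level was 14500, 14200, 18500, 14700 and 14600 CPM in WT replicates 1 to 5 and 17400, 16300, 17500 and 16700 CPM in S1PR4-/- replicates 1 to 4. Each S1PR4-/- sample was above 4 of the WT samples and below WT replicate 3. Ighm, the heavy chain of IgM, was the most abundant, between 5600 and 7120 CPM in WT and between 6260 and 7250 CPM in S1PR4-/- samples. Iglc3 and Iglc2, lambda light chain constant regions, did not overlap between genotypes. Iglc3 was at 431, 427, 444, 434 and 432 CPM in WT and at 490, 485, 539 and 505 CPM in S1PR4-/- samples, a log2 fold change of 0.22 (SE 0.05, unadjusted p = 0.00198, FDR 0.864). Iglc2 had a log2 fold change of 0.21 (SE 0.06, unadjusted p = 0.00321, FDR 0.981). Without WT replicate 3, 8 of the 11 had an unadjusted p under 0.05, against 5.41% of all genes tested there, with a median of 0.23 and none at an FDR under 0.05 in edgeR. That fit drops the WT sample with the highest sum of this same list. A larger difference there follows by construction, and the 8 are no separate evidence of one. Without S1PR4-/- replicate 1, 5 of 12 did, with a median of 0.15.

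Ighg2c, a heavy chain made after class switching in type 1 responses, was named after its value was seen as the third member at an unadjusted p under 0.05. It was at 108, 45.2, 207, 74.5 and 43.3 CPM in WT replicates 1 to 5 and at 99.2, 388, 277 and 391 CPM in S1PR4-/- replicates 1 to 4. S1PR4-/- replicates 2 to 4 were above every WT sample, and replicate 1 was within the WT range. The log2 fold change was 1.59 (SE 0.49, unadjusted p = 0.00704, FDR 0.981, edgeR). Ighg1, the heavy chain of IgG1 and also named after its values were seen, was at 1100 CPM in WT replicate 3 and between 53.2 and 462 CPM in the other WT samples, and between 127 and 528 CPM in S1PR4-/- samples. Plasma cell genes (10 of 11 tested, 5 above and 5 below 0) had a median of 0.06 and, with all 9 samples and no covariate, no member at an unadjusted p under 0.05 in edgeR. Without WT replicate 3 the median was 0.11, with 7 above and 3 below 0 and 2, Derl3 and Jchain, at an unadjusted p under 0.05. Here too the sample left out had the highest WT sum of the list, so the rise follows by construction. The median was 0.01 with none without S1PR4-/- replicate 1, and with the split of samples as a covariate it was 0.06 with 2, Derl3 and Slamf7. Their summed level was 611, 623, 949, 598 and 552 CPM in WT and 747, 682, 629 and 687 CPM in S1PR4-/- samples, with Xbp1, a driver of antibody secretion that B cells also express, the most abundant. Aside from WT replicate 3, every S1PR4-/- sample was above every WT sample in this sum, and its part in the immunoglobulin values was not tested.

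The receptors and enzymes that read and handle S1P came next. Of 13 listed genes besides S1pr4, 10 were tested, 8 above and 2 below 0, with a median of 0.09. With all 9 samples and no covariate no member had an unadjusted p under 0.05 in edgeR, and none an FDR under 0.05 in edgeR, DESeq2 or limma voom. S1pr1, the egress receptor, was at 492, 477, 569, 473 and 499 CPM in WT and at 563, 530, 672 and 497 CPM in S1PR4-/- samples, a log2 fold change of 0.17 (SE 0.09, FDR 0.981), with an unadjusted p under 0.05 without WT replicate 3. Per kb of exon, WT S1pr1 was at 165 CPM, S1pr4 at 37.7 and S1pr3 at 4.16, so S1pr4 was the second of the S1P receptors in these cells by this level. Sgpl1, the lyase that breaks S1P down, was between 208 and 245 CPM in WT and between 218 and 240 CPM in S1PR4-/- samples. Sgpp1, an S1P phosphatase, was between 128 and 164 CPM in WT and between 148 and 170 CPM in S1PR4-/- samples. S1pr5, Sphk1 and Mfsd2b were too low to be tested.

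Downstream of the receptors, Gna15 was the 1 changed gene among 16 tested of 19 G protein subunit and RGS genes, 7 above and 9 below 0, with a median of -0.03. Gnai2, the inhibitory alpha subunit through which S1P receptors signal in lymphocytes, was between 727 and 795 CPM in WT and between 707 and 783 CPM in S1PR4-/- samples. Gnaq, a further Gq class subunit, was at 10.4, 7.85, 10.9, 9.32 and 8.39 CPM in WT and at 11.6, 14.4, 11.3 and 11 CPM in S1PR4-/- samples, with no overlap. Its log2 fold change was 0.37 (SE 0.15, unadjusted p = 0.0333, FDR 0.981). Per kb of exon, Gna15 was at 12.2 CPM and Gnaq at 1.52 CPM in WT cells.

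Egress and homing genes (15 tested, 8 above and 7 below 0) had a median of 0.02 that turned to -0.04 without S1PR4-/- replicate 1 and to -0.01 under limma voom. None had an FDR under 0.05 in edgeR, DESeq2 or limma voom. Klf2, the factor that turns on S1pr1 in resting lymphocytes, was between 476 and 616 CPM in WT and between 484 and 709 CPM in S1PR4-/- samples. Itgb7, an integrin of homing to gut tissue, was between 469 and 576 CPM in WT and between 505 and 646 CPM in S1PR4-/- samples. Klf2 and S1pr1 each had their highest value in S1PR4-/- replicate 3.

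Signaling from the B cell receptor was compared next. Of its 21 genes, all tested, 9 were above and 12 below 0, with a median of -0.01 that turned to 0.00 without S1PR4-/- replicate 1, 0.02 without WT replicate 3 and 0.01 with the split of samples as a covariate. None had an unadjusted p under 0.05 in edgeR with all 9 samples, TMM and no covariate, against 2, Cd79b and Cd81, without WT replicate 3, and 1, Cd81, with the covariate, with total counts as the scale or in DESeq2. Cd79b, the partner of Cd79a, was between 2380 and 2730 CPM in WT and between 2580 and 2690 CPM in S1PR4-/- samples. PI3K, AKT and FOXO genes (21 tested, 5 above and 16 below 0) had a median of -0.06, and of -0.01 without S1PR4-/- replicate 1. Irs2, an adaptor of insulin and IL-4 receptor signals, was the 1 member at an unadjusted p under 0.05 in edgeR with all 9 samples and no covariate. It was at 94.4, 95, 75.2, 83.2 and 84.9 CPM in WT and at 57.2, 70.8, 69 and 69.3 CPM in S1PR4-/- samples, with no overlap, a log2 fold change of -0.38 (SE 0.10, unadjusted p = 0.00210, FDR 0.864). Foxo1, a factor of resting B cells that AKT inactivates, was between 386 and 432 CPM in WT and between 355 and 397 CPM in S1PR4-/- samples. No member of either list had an FDR under 0.05 in edgeR, DESeq2 or limma voom.

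Survival genes included the list member nearest to the threshold after Gna15 and Tdg. Of 17 BCL2 family genes, 13 were tested, 6 above and 7 below 0, with a median of -0.01 that turned to 0.01 without WT replicate 3. Bcl2l11 encodes BIM, which promotes death of lymphocytes. It was at 33.2, 29.2, 40.1, 31.7 and 34.9 CPM in WT replicates 1 to 5 and at 24.6, 24, 24.5 and 20.9 CPM in S1PR4-/- replicates 1 to 4, with no overlap. The log2 fold change was -0.52 (SE 0.11, unadjusted p = 0.000521, FDR 0.526, edgeR), and -0.55 without S1PR4-/- replicate 1 (FDR 0.749). Over 19 alternatives its adjusted p ran from 0.015 to 1, under 0.05 in DESeq2 alone. Bcl2, which opposes BIM, was between 112 and 167 CPM in WT and between 106 and 140 CPM in S1PR4-/- samples, a log2 fold change of -0.25 (unadjusted p = 0.0642, edgeR). Its unadjusted p was under 0.05 in DESeq2, without WT replicate 3 and with the split as a covariate, among other fits, and its FDR was over 0.05 in each. Mcl1, a further survival factor, was between 501 and 739 CPM in WT and between 493 and 639 CPM in S1PR4-/- samples. Caspase and death receptor genes (11 of 12 tested, 5 above and 6 below 0) had a median of -0.00 that turned to 0.01 without S1PR4-/- replicate 1 and 0.02 without WT replicate 3. None had an unadjusted p under 0.05 in edgeR with all 9 samples and no covariate, against 1, Xiap, without S1PR4-/- replicate 1 and 1, Apaf1, with the split as a covariate. None had an FDR under 0.05 in edgeR, DESeq2 or limma voom.

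BAFF, CD40 and NF-kB genes (15 of 16 tested, 3 above and 12 below 0) had a median of -0.09 and none at an FDR under 0.05 in edgeR, DESeq2 or limma voom. Besides Tnfrsf13b, 2 had an unadjusted p under 0.05. Nfkbie, an inhibitor of NF-kB that NF-kB itself induces, was at 173, 195, 174, 192 and 174 CPM in WT and at 143, 169, 137 and 168 CPM in S1PR4-/- samples, with no overlap and a log2 fold change of -0.23 (SE 0.08, unadjusted p = 0.0162, FDR 0.981). Rel, the NF-kB subunit of activated lymphocytes, named after its value was seen, was between 118 and 185 CPM in WT and between 99.2 and 118 CPM in S1PR4-/- samples (log2 fold change -0.31, unadjusted p = 0.0409), which was over 0.05 without S1PR4-/- replicate 1. Tnfrsf13c, the BAFF receptor on which mature B cells depend, was between 612 and 745 CPM in WT and between 597 and 687 CPM in S1PR4-/- samples.

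Immediate early genes, which rise within minutes of a stimulus and also with cell handling, leaned to one side. Of 16 tested of 17, 1 was above and 15 below 0, with a median of -0.18, and between -0.23 and -0.15 without S1PR4-/- replicate 1, without WT replicate 3 or with the split of samples as a covariate. None had an FDR under 0.05 in edgeR, DESeq2 or limma voom. Nr4a1, a reporter of antigen receptor signals, was the 1 member at an unadjusted p under 0.05, at 119, 96.9, 51.3, 89.6 and 71.4 CPM in WT and at 61.8, 65.5, 43.2 and 63.2 CPM in S1PR4-/- samples. Its log2 fold change was -0.55 (SE 0.21, unadjusted p = 0.0252, FDR 0.981). An unadjusted p under 0.05 was found for 4 without S1PR4-/- replicate 1, Nr4a1, Junb, Ier2 and Myc, against 4.27% of all genes in that fit, and without WT replicate 3 there were 3, Nr4a1, Btg2 and Dusp2, against 5.41%. With the split as a covariate there were 0 in edgeR, against 1, Nr4a1, in limma voom and in DESeq2 without it. The genotypes overlapped, WT replicate 3 being within the S1PR4-/- range. Btg2, an antiproliferative factor and the most abundant of the list, was between 411 and 655 CPM in WT and between 421 and 551 CPM in S1PR4-/- samples.

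Interferon-stimulated genes spread widely between mice of each genotype. Their summed level was 1540, 2970, 1840, 5140 and 2990 CPM in WT and 3540, 2800, 1570 and 2200 CPM in S1PR4-/- samples. Of 21 tested, 7 were above and 14 below 0, with a median of -0.19, and none had an unadjusted p under 0.05 in edgeR or an FDR under 0.05 in edgeR, DESeq2 or limma voom. Without S1PR4-/- replicate 1 the 21 were all below 0, with a median of -0.33 and still none at an unadjusted p under 0.05. Irf7, which amplifies the interferon response, spanned 88.3 to 610 CPM in WT and 82.9 to 346 CPM in S1PR4-/- samples.

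Toll-like receptor genes (15 tested, 9 above and 6 below 0) had a median of 0.04, with 2 at an unadjusted p under 0.05 and none at an FDR under 0.05 in edgeR, DESeq2 or limma voom. Unc93b1, which carries nucleic acid sensing receptors to endosomes, had a log2 fold change of 0.18 (unadjusted p = 0.0296), and Tlr6 of 0.53 (unadjusted p = 0.0402), with 19 CPM in S1PR4-/- replicate 1 and 14.6 CPM or less elsewhere. In the fit without S1PR4-/- replicate 1, 0 of the 15 had an unadjusted p under 0.05 in edgeR, against 1 in limma voom and 3 in DESeq2 with all 9 samples, with unadjusted p = 0.0882 for Unc93b1 and 0.163 for Tlr6. MHC class II genes, with which B cells present antigen, were the most abundant list, at a summed 61800 to 76200 CPM in WT and 63400 to 72100 CPM in S1PR4-/- samples. Of 10 tested, 7 were above and 3 below 0, with a median of 0.03. Cd74, the invariant chain, was between 35500 and 45300 CPM in WT and between 37600 and 45000 CPM in S1PR4-/- samples. Proliferation genes (17 tested, 7 above and 10 below 0) had a median of -0.02 that turned to 0.01 without WT replicate 3 and to 0.05 with the split of samples as a covariate. Cdk1, the kinase of mitosis, was at most 3.4 CPM in every sample. With all 9 samples and no covariate, neither the MHC class II nor the proliferation list had a member at an unadjusted p under 0.05 in edgeR, while with the split as a covariate 1 proliferation gene did, Aurkb, a kinase of mitosis. Neither list had a member with an FDR under 0.05 in edgeR, DESeq2 or limma voom.

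Markers of other cells were compared as lists as well. T cell markers (10 of 14 tested, 4 above and 6 below 0) had a median of -0.04, which was 0.17 without S1PR4-/- replicate 1 and 0.29 under limma voom, but -0.36 with the split of samples as a covariate. NK cell markers (6 tested, 2 above and 4 below 0) had a median of -0.18, which was 0.20 without S1PR4-/- replicate 1 and under limma voom, -0.49 without WT replicate 3 and -1.36 with the split as a covariate, there with 5 of 6 below 0. Myeloid and dendritic cell markers (10 of 13 tested, 3 above and 7 below 0) had a median of -0.12, which was 0.16 under limma voom, -0.00 without S1PR4-/- replicate 1, -0.22 without WT replicate 3 and -0.85 with the split as a covariate. Lyz2, the lysozyme of myeloid cells, was at 16.2, 4.68, 23.3, 38.1 and 11.4 CPM in WT and at 13, 9.52, 6.07 and 7.19 CPM in S1PR4-/- samples (log2 fold change -1.07, unadjusted p = 0.0469, FDR 0.981, edgeR). Stromal and endothelial markers (2 of 8 tested) had a median of 0.17, which was 0.40 without S1PR4-/- replicate 1 and -0.28 with the split of samples as a covariate, and nearly all of their level came from Pecam1, which B cells also express (290 to 382 CPM). Erythroid and platelet markers (3 of 6 tested, 0 above and 3 below 0) had a median of -0.94, which was -3.04 without S1PR4-/- replicate 1, and summed to at most 13.6 CPM. B cell markers (10 tested, 7 above and 3 below 0) had a median of 0.04. No marker of these 6 lists had an FDR under 0.05 in edgeR, DESeq2 or limma voom, and with all 9 samples and no covariate 1, Lyz2, had an unadjusted p under 0.05 in edgeR. With the split as a covariate, where 6.77% of all tested genes did, 6 did, the NK cell markers Eomes, Klrb1c and Nkg7, the myeloid markers C1qa and Cd68 and the T cell marker Cd8b1. There were 2 without S1PR4-/- replicate 1, Lyz2 and the erythroid marker Hbb-bs (unadjusted p = 0.0331), and without WT replicate 3 there was 1, the B cell marker Cd79b. The part of these markers in the genotype differences was not tested.

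GC B cells of the same day were used to ask whether the genotype difference is larger outside the germinal center, where WT S1pr4 is higher. In edgeR's test of the interaction, 0 of 14490 genes (0%) had an FDR under 0.05 and 664 an unadjusted p under 0.05, where 724 would pass by chance. DESeq2 gave 6 genes at an FDR under 0.05, among them Gna15 and Rbm14. The interaction of Gna15 was -2.77 in log2 (SE 0.56, FDR 0.393, edgeR). Without S1PR4-/- replicate 1, Gna15 was the 1 gene of 14808 past the threshold, at -2.38 (SE 0.31, FDR 0.00405), with 655 genes at an unadjusted p under 0.05. In WT cells Gna15 was at a median of 25.3 CPM in non-GC and 10.7 CPM in GC B cells, and in S1PR4-/- cells at 1.94 and 4.58 CPM, so the order of the populations turned with the genotype.

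The genes changed in non-GC B cells had values in the same direction in the other 3 sorted populations, each with its own WT samples. Changed genes numbered 8 of 13070 (0.0612%) in GC B, 67 of 13495 (0.496%) in TFH and 15 of 13197 (0.114%) in non-TFH cells. Tdg had log2 fold changes of -1.68, -1.46 and -1.47 in GC B, TFH and non-TFH cells, and Gm9855 of 6.33, 6.16 and 6.06. Gna15 had -1.35, -1.68 and -0.83, of which the last was not called (FDR 0.342). Txnrd1 had 0.06, 0.05 and 0.09, and Matk -0.03, 0.02 and -0.03, beside 0.48 and 0.71 in non-GC B cells. The interaction with GC B cells had an FDR over 0.05 for both Txnrd1 (FDR 0.691) and Matk.

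As a whole, the 9 transcriptomes were compared on the first principal component, which held 30.6% of the variance. The mean score differed by 20.5 between genotypes (p = 0.603, two-sided exact permutation test, whose smallest possible p is 0.00794), and without S1PR4-/- replicate 1 the difference was 11.8 (p = 0.643, the same exact test). On the second component, with 16.3% of the variance, p was 0.46 by the exact test.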

How the data were processed

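RNA-sequencing of sorted non-GC B cells was compared between 5 WT and 4 S1PR4-/- samples. The deposited values were RSEM expected counts per gene, made by the authors with cutadapt 2.10, STAR 2.5.3 on mm10, Picard MarkDuplicates and RSEM 1.3.0. Counts were rounded, filtered with filterByExpr, scaled with TMM and tested with the edgeR 4.0.16 quasi-likelihood F test in R 4.3.3. Changed means past 1.5-fold with an FDR under 0.05. DESeq2 1.42.0 and limma 3.58.1 voom were alternatives, with other scalings, no filter on low counts, a replicate block, Xist as a covariate, all 8 groups in one fit and each sample left out in turn. Sample quality weights, summed copies and the split of samples as a covariate were chosen after the data were seen. Standard errors are the log2 fold change over the root of F. Coordinates, distances, copies and shared words come from GENCODE M21 on GRCm38, in which 55208 of the 55450 symbols of the table matched once. The authors name a later GENCODE release for their counts, on which these values were not computed. Transcripts were aligned with Biopython 1.88. Figures were drawn with matplotlib 3.10.9. The fits were tested on simulated data.

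Named genes were S1pr4, every changed gene, every gene within 10 Mb of S1pr4 at an FDR under 0.05, in each list the 3 tested members with the highest mean CPM, the 2 with the lowest unadjusted p and any member at an FDR under 0.05, and the 5 unchanged genes with the lowest unadjusted p in each direction at 1 CPM or more. Other genes in the text (those of the label check, the copy Zfp433, untested members, Cd80, Cxcr5, Fcer2a, Ighg1, Ighg2c, Nt5e, Rel and members named from alternative fits alone) were chosen after their values were seen. Some members of the lists are not reported. The members and lists were chosen with earlier results of these data known. Total counts ran from 27924916 to 39258003 a sample, and the median 95% interval reached 0.33 on the log2 scale to either side.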

Additional observations from a re-analysis of the deposited data

Results flagged for a closer look

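Samples far from the others of their genotype were sought in 332 groups of values, and 35 were past Dixon's critical value, where chance gives about 1 in 20 groups. WT replicate 3 held 12 of them and S1PR4-/- replicate 1 held 11. In WT replicate 3, Bcl6 was at 167, Cd79b at 2730, Cd81 at 378, Igkc at 3590, Jchain at 254 and S1pr1 at 569 CPM. Summed CPM in the same sample was 72.1 for B-1 and age-associated genes, 225 for germinal center genes, 949 for plasma cell genes, 18500 for immunoglobulin constant regions and 1160 for S1P genes, and immunoglobulin genes took 2% of its counts.

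In S1PR4-/- replicate 1, Gna15 and Cdh5 were at 0.067, Hba-a1 at 2.15, Hbb-bs at 2.11, Irs2 at 57.2, Mcm2 at 86.1, Mcm6 at 154 and Pik3cd at 372 CPM. The same sample had summed immature and transitional genes at 170 CPM, 641 tested genes at 0 and a first component score of 88.8.

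In S1PR4-/- replicate 4, Bcl2l11 was at 20.9, Cd2 at 216, Flt3 at 7.12 and Gm32687 at 0.124 CPM. The flag of Gm32687 rests on 4 counts against 0 in every other S1PR4-/- sample, a tie that any count above 0 would put past the critical value. In S1PR4-/- replicate 3, Nr4a1 was at 43.2 and Xbp1 at 208 CPM, and in S1PR4-/- replicate 2 Arhgef1 was at 1190 CPM. In WT replicate 1 Ighv5-16 was at 10.1 CPM, and in WT replicate 2 Igkv16-104 was at 16.3 CPM and 13450 genes had at least 10 counts. In WT replicate 5 Myb was at 6.77 CPM and the BAFF, CD40 and NF-kB sum at 3360 CPM.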

How the results depend on the processing

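The 7 changed genes became 16 with DESeq2 and 25 with all 8 groups in one fit, each with the same 7 among them, and 3 with copies summed, where fewer genes stand for the copies by construction. With the replicate block there were 5, although replicate numbers do not pair the samples: correlations of WT and S1PR4-/- samples of the same number ran from -0.09 to 0.144. Leaving out 1 sample at a time gave 6 to 8. Within 10 Mb of S1pr4 the 4 genes became 8 with DESeq2, 7 with all 8 groups and 2 with the replicate block, and 3 to 6 when 1 sample was left out. The interaction, with 0 genes, had 6 with DESeq2, 0 with the replicate block and 0 to 1 when 1 sample was left out. For these changes in count the cause was not tested. The genotype difference on the first component was 11.8 to 32.3 when 1 sample was left out. Gna15 was called in 13 of 19 alternatives and Gm3055 in 18, both missed with the replicate block, and the other 5 genes in all 19. Over all named genes and alternatives, 2367 values kept their direction and side of the threshold or moved by less than the spread of replicates, 15 were past the threshold only under the alternative, 7 only without it, and 3 moved further. Depth limits the genes with low counts most: the 90th percentile of the interval reach was 1.49 on the log2 scale.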
